A study of Mus musculus with 14 samples.

Results

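The miR-297, miR-466, miR-467 and miR-669 families are the repeat miRNAs of the intron of mouse Sfmbt2, and they were followed here in a qPCR screen of plasma from mice with osteosarcoma (OS) and healthy controls. Members were the wells whose miRNA name, after the mouse or rat prefix, was miR-297, miR-466, miR-467 or miR-669 with any letter and arm. This gave 13 miRNAs in 13 wells, of 389 named miRNAs in 392 named wells. They were, all as mouse (mmu) assays, mmu-miR-297a, miR-297b-3p and miR-297c, miR-466d-3p, miR-466d-5p, miR-466f and mmu-miR-466j, mmu-miR-467a and mmu-miR-467b, and miR-669a-5p, miR-669b, miR-669e and miR-669l.

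Plasma came from 6 wild-type control mice and 8 genetically engineered (GEMM) OS mice, with 1 sample per mouse, and the methods speak of 14 GEMM OS mice, of which 8 are analysed here. The controls were littermates, which the methods give as p53+/+;Cre+/−, and whether a given control carried Cre is not stated. The study describes the controls as matched to the OS mice in age. GEMM OS mice carried Cre under the Col-α1(I) promoter, active in osteoblasts, and a floxed Trp53 gene with 1 allele (F/+) or both (F/F), and blood was drawn once a tumor had formed. Which OS mice were F/+ and which F/F is not given, nor is the age of any mouse, and the labels give median ages at tumor onset of 54 weeks for F/+ and 38 weeks for F/F. Genotype and tumor therefore cannot be told apart between the groups, and ages were not compared here.

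Sfmbt2 encodes a Polycomb group protein and is imprinted, with the paternal copy active in extraembryonic tissue of the mouse. A single intron of the gene holds a large array of miRNA hairpins that arose by tandem duplication in rodents, and the array is best known from the placenta and from embryonic stem cells. The mature miRNAs are short, often built of repeats of U and G or of their complement, and their names group them by sequence likeness rather than by function. Like other miRNAs, each is thought to find its targets through its seed, bases 2 to 8 from the 5′ end.

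In the RefSeq annotation of GRCm38.p6, 82 miRNA loci bear names of these families, of which 72 lie within Sfmbt2 and 10 elsewhere. Of the 13 members, 12 have at least 1 locus within Sfmbt2. For miR-467a there are 10 loci and for miR-669a 12, all within the gene, so a single well stands for several copies. Both miR-297a, with 1 of its 4 loci on chromosome 7, and miR-466f, with 1 of its 4 loci on chromosome 13, also have a copy outside. The exception is miR-466j, whose single locus lies on chromosome 10, so it belongs to the families by name but not to the intron.

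Of the 13 members, the sequence table of RefSeq (GRCm38.p6) matched 1, miR-466j, which is also the member that rose in OS. Its mature sequence is set beside those of relatives outside Sfmbt2 that were not among the named wells, to show what the families look like, with the seed in capitals.
miR-466j, chr10:60960802-60960824, plus strand: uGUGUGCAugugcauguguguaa
miR-466k, chr3:85467396-85467418, plus strand: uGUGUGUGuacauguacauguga
miR-467h, chr9:115381898-115381919, plus strand: aUAAGUGUgugcauguauaugu
miR-669n, chr3:115979905-115979924, plus strand: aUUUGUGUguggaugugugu
In miR-466j, 73.9% of the 23 bases are G or U. When miR-466j and miR-466k are laid side by side from the 5′ end, 12 of 23 positions hold the same base, and their seeds differ. None of the other named miRNAs with a sequence in the table, 65 with miR-466j itself, shares the seed of miR-466j.
The hairpin of miR-297a outside Sfmbt2, Mir297-1, shows the repeat at the level of the precursor, with its longest run of alternating U and G in capitals.
Mir297-1, chr7:10958437-10958512, minus strand: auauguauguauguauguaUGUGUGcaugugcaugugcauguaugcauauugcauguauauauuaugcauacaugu
How far the assays tell members of this likeness apart was not tested.

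Levels were read as quantification cycles (Cq), the cycle at which a product is seen, on a log2 scale where a lower Cq is a higher level, and Cq above 37 was taken as background. Most members sat close to that limit. Of 182 member values (13 miRNAs in 14 mice), 151 (83.0%) were detected, and 42 (23.1%) lay above Cq 36 and at or below Cq 37. In the other named wells 94.4% of values were detected and 7.31% lay in that last cycle. The median detected value was Cq 35.33 for members and Cq 32.12 for the other wells.

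Of the 31 member values that were not detected, 17 were above Cq 37 and at or below Cq 38, 5 were at exactly Cq 40 and 1 was blank. The count of detected values therefore moved with the limit, from 62 at Cq 35 and 109 at Cq 36 to 168 at Cq 38, whereas miR-669b was detected in all mice at each of these limits. At Cq 37, miR-466j, miR-669b and miR-669e were detected in all 14 mice, which is 3 of 13 members (23.1%), against 276 of 389 named miRNAs (71.0%). At the other end, miR-466d-5p was detected in 7 mice, miR-669l in 9 and miR-467b in 10.

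**Figure D1:**
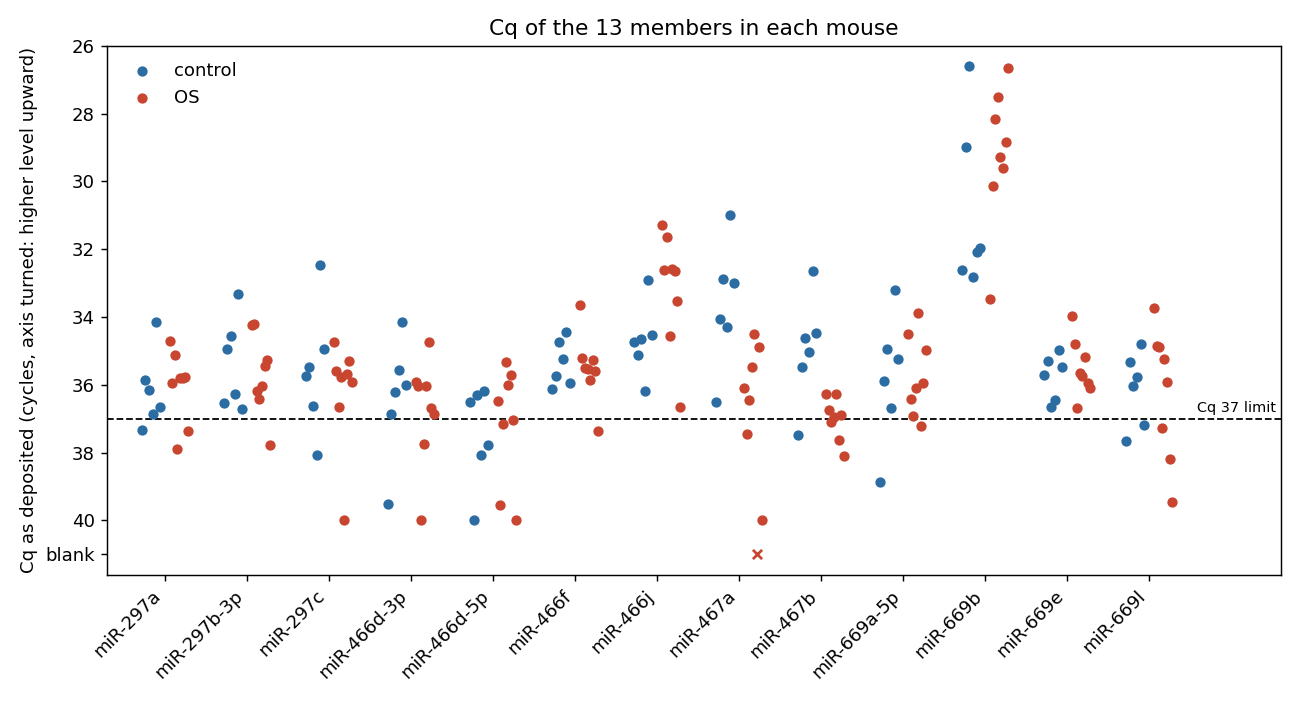
Cq as deposited for each of the 13 members in each mouse, with controls and OS mice apart and the background limit of Cq 37 as a line; the axis runs downward, so higher points are higher levels. Apart from miR-669b, with Cq 26.59 to 33.46, most values lie within a few cycles of the limit. The earliest among these other members are Cq 30.99 for miR-467a and 31.27 for miR-466j.

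**Figure D2:**
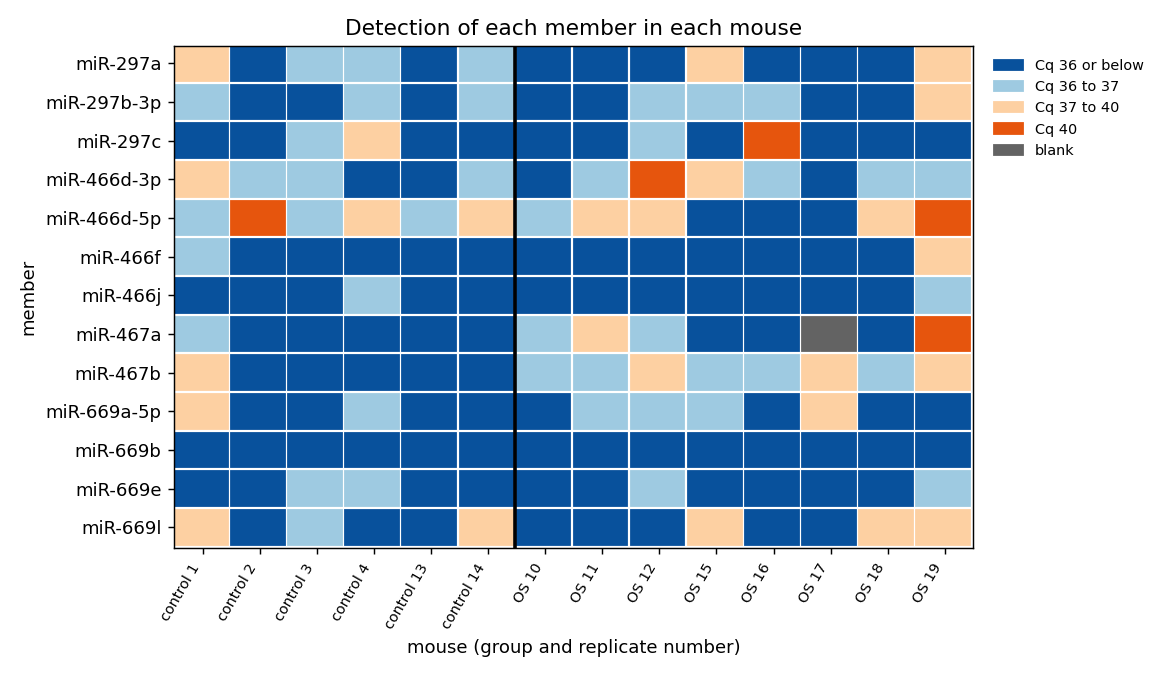
The state of each member in each mouse: Cq 36 or below, above 36 and up to 37, above 37 and under 40, exactly 40, or blank. Control replicate 1 (8 of 13 members) and OS replicate 19 (6 of 13) hold the fewest detected members.

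Control mice had 8 to 13 of the 13 members detected (11.3 ± 1.86, SD, n = 6) and OS mice 6 to 13 (10.4 ± 2.07, SD, n = 8), so the groups overlapped over nearly the whole range. OS replicate 19, with 6 members, and control replicate 1, with 8, were also the mice with the fewest other miRNAs detected, at 87.0% and 88.6% of them, and with the highest mean Cq over all miRNAs, at 32.9 and 32.8. No member differed in the share of mice with a detected value by Fisher's exact test (two-sided, lowest unadjusted p = 0.209 for miR-467a). Among all 389 named miRNAs that test called 0 (0%) after adjustment and 1 (0.257%) at an unadjusted p under 0.05.

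For the comparison of levels, each Cq was subtracted from the mean Cq of its mouse, which gives a normalized level in log2 units, where a value of 0 is an average miRNA of that mouse and each unit up is a doubling. By median normalized level, miR-669b ranked 91 of 388 miRNAs, miR-466j ranked 249 and miR-467a ranked 268, and the other 10 members lay between rank 322 and rank 382. These ranks also carry the efficiency of each primer pair.

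Between OS and control mice, 2 of 13 members changed, and they went opposite ways: miR-466j rose 3.85-fold and miR-467b fell 3.17-fold. The other 11 did not pass the test (limma, two-sided, Benjamini-Hochberg adjusted p under 0.05 over 388 miRNAs). Over all 388 miRNAs, 49 were called (12.6%), 24 of them higher (6.19%) and 25 lower (6.44%) in OS, so a count of 1 member higher (7.69%) and 1 lower (7.69%) is close to that background. The median difference over the 13 members was 0.47 and over all 388 it was -0.00266 on the log2 scale.

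**Figure D3:**
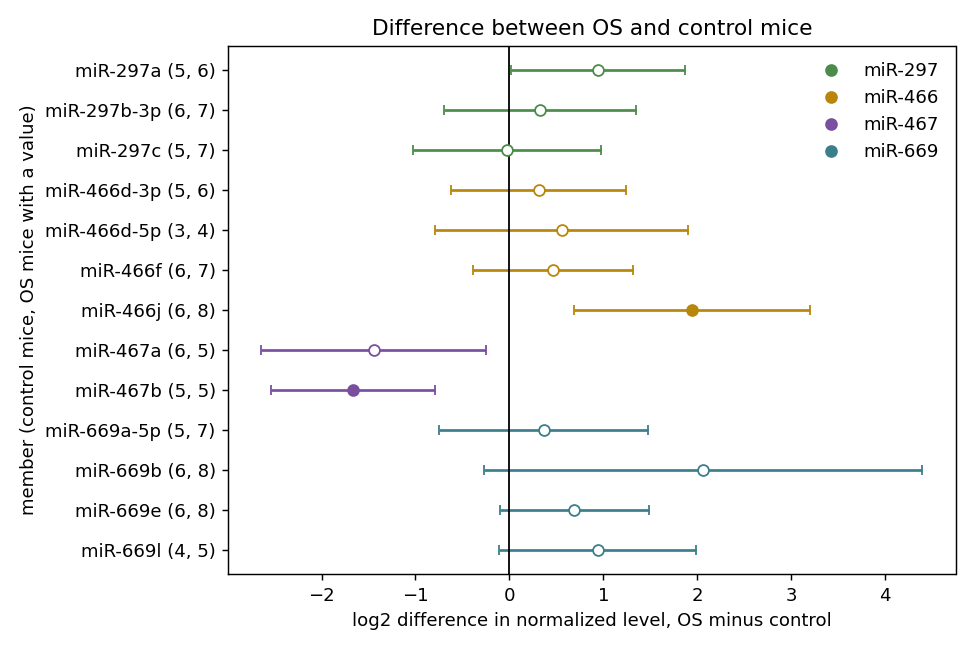
Difference in mean normalized level, OS minus control, in log2 units for each member, with 95% confidence intervals from limma and, in brackets, the number of control and OS mice with a value; filled points have an adjusted p under 0.05. The filled points are miR-466j at 1.94 and miR-467b at -1.67, and both members of miR-467 lie below 0.

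The miR-467 wells included the member that fell, miR-467b. In the 5 controls with a detected value, normalized miR-467b was -3.96, -3.21, -2.92, -2.83 and -2.05. In the 5 OS mice with a detected value it was -4.96, -4.77, -4.62, -4.54 and -4.40. All 5 of these OS mice lay below all 5 controls, and such a separation of the detected mice was seen for 11 of 388 miRNAs (2.84%). The means were -2.99 ± 0.69 (SD, n = 5) and -4.66 ± 0.22 (SD, n = 5), a log2 difference of -1.67 (SE 0.41, 95% interval -2.54 to -0.79, limma adjusted p = 0.0214). An exact two-sided permutation test over the 252 splits of these 10 mice gave p = 0.00794, the smallest that 5 against 5 mice allow.

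That separation rests on the mice with a Cq of 37 or below. The mice left out, control replicate 1 and OS replicates 12, 17 and 19, had Cq 37.49, 37.11, 37.64 and 38.09. With a limit of Cq 38, control replicate 1 came in at -4.49, within the range of the OS mice, and the groups overlapped. With all mice ranked and undetected values tied at the lowest rank, the exact two-sided permutation p of miR-467b was 0.0210, or 0.122 after adjustment over 389 miRNAs. The normalized level of Cq 37 ran from -6.41 to -4.14 between mice, so an undetected value need not be the lowest. At a stricter limit of Cq 36, miR-467b was detected in 5 of 6 controls and in 0 of 8 OS mice (Fisher's exact test, two-sided, p = 0.00300, adjusted p = 0.907), where 9 of 389 miRNAs (2.31%) had an unadjusted p under 0.05. All 8 OS values of miR-467b thus lay within the last cycle before the limit of Cq 37 or past it.

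For miR-467a all 6 controls gave a value, from -3.68 through a median of -1.97 to -0.40. The 5 OS mice with a value ran from -4.36 through a median of -3.30 to -2.39, and OS replicates 11, 17 and 19 gave Cq 37.45, a blank and Cq 40. The groups overlapped, with 2 of the 5 OS mice below every control. The log2 difference was -1.44 (SE 0.56), which did not pass the test (limma adjusted p = 0.106), while the exact two-sided permutation test gave an unadjusted p = 0.0455. In the test on ranks, which counts the undetected OS mice as lowest, the exact two-sided permutation p was 0.00766, or 0.0676 adjusted, and over all miRNAs that test called 7 of 389 (1.8%) after adjustment. It also ranks the blank of OS replicate 17 as lowest, though a blank has no Cq and need not be a low level. Together, 11 of 12 control values and 10 of 16 OS values of the miR-467 wells were detected. The paired wells moved alike from mouse to mouse: in the 9 mice with both, miR-467b lay 1.38 cycles above miR-467a on average, with an SD of 0.57.

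The miR-466 wells included the member that rose. In controls normalized miR-466j ran from -4.07 through a median of -3.06 to -1.90, and in OS mice from -3.79 through a median of -0.88 to 0.80. Of 8 OS mice, 6 lay above every control, and OS replicates 15 and 19, at -2.38 and -3.79, lay among the controls. The means were -3.01 ± 0.81 (SD, n = 6) and -1.06 ± 1.46 (SD, n = 8), a log2 difference of 1.94 (SE 0.60, 95% interval 0.69 to 3.20, limma adjusted p = 0.0407, exact two-sided permutation p = 0.0153 over 3003 splits). All 14 mice gave a value, so no mouse was left out of this test. On ranks the exact two-sided permutation p was 0.0293, or 0.130 after adjustment, so that 3 of 13 members (miR-466j, miR-467a and miR-467b) had an unadjusted rank p under 0.05, as did 28% of all miRNAs, and 0 members passed after adjustment.

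The call of miR-466j sat near the threshold. It was kept in 4 of 14 fits that each left out 1 mouse, namely those without control replicate 1 or OS replicate 15, 17 or 19, and the difference in the 14 fits stayed between 1.67 and 2.33. With panel I and panel II centred apart the difference of miR-466j, a panel II well, was 1.49 (limma adjusted p = 0.0857), and with reference miRNAs as the scaling it was 1.89 (limma adjusted p = 0.0530). The call of miR-467b held in 13 of 14 such fits, and without control replicate 3 its limma adjusted p was 0.0535. The panel II wells other than miR-466j also had smaller differences with the panels centred apart. These were 0.000478 for miR-466f, 0.24 for miR-669e and 0.48 for miR-669l, against 0.47, 0.69 and 0.94 as reported. The differences of the panel I wells all moved upward instead.

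The other miR-466 wells did not follow miR-466j past the threshold. For miR-466f, detected in 13 mice, controls ran from -4.71 to -2.95 and OS mice from -4.20 to -1.91, a difference of 0.47 (SE 0.40, limma adjusted p = 0.460). The arms of a single hairpin, miR-466d-3p and miR-466d-5p, differed between groups by 0.31 (SE 0.44) and 0.56 (SE 0.61), with limma adjusted p of 0.665 and 0.569. Both arms were detected in the same mouse in 5 mice, which leaves their ratio poorly known. In all of these wells the groups overlapped.

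**Figure D4:**
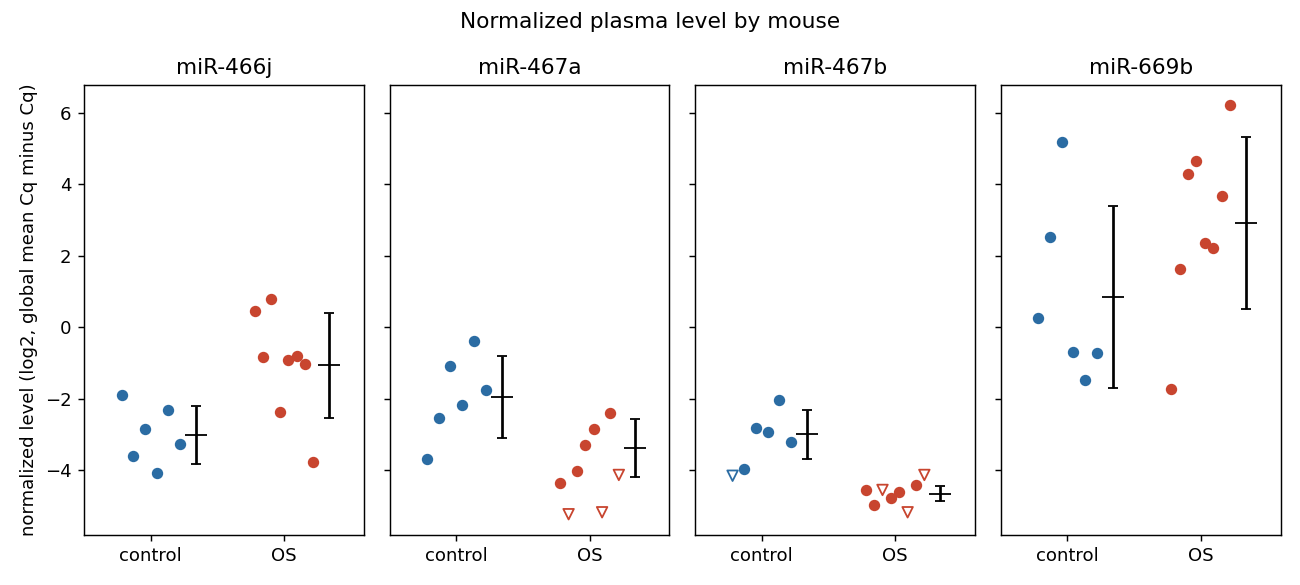
Normalized level in log2 units (mean Cq of the mouse minus Cq) of miR-466j, miR-467a, miR-467b and miR-669b in each mouse, with bars for the mean and SD of the detected mice of each group. Open triangles mark mice without a detected value, drawn at the level that Cq 37 would have in that mouse. For miR-467b the 5 OS mice with a detected value sit below the 5 such controls, at -4.96 to -4.40 against -3.96 to -2.05. Control replicate 1, not detected, is drawn at -4.16 and may lie within the range of the OS mice. For miR-466j, 6 of 8 OS mice sit above every control.

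The miR-297 wells gave no call. For miR-297a the difference was 0.94 (SE 0.43, limma adjusted p = 0.154), with 3 of 6 OS mice above every one of 5 controls. For miR-297b-3p it was 0.32 (SE 0.48, limma adjusted p = 0.690), and for miR-297c it was -0.03 (SE 0.47, limma adjusted p = 0.980), with the sign of the last changing in 9 of the alternative fits. Their median detected Cq was 35.75, the latest of the subfamilies, and 16 of 18 control values and 20 of 24 OS values were detected.

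The miR-669 wells held the most abundant and most variable member. Normalized miR-669b ran from -1.49 through a median of -0.23 to 5.19 in controls and from -1.74 through a median of 3.01 to 6.20 in OS mice. By normalized level the mouse with the most was OS replicate 19, the one with the fewest members detected, and the one with the least was OS replicate 10. As deposited, Cq of miR-669b was 26.66 in OS replicate 19 and 26.59 in control replicate 3. Mean Cq over all miRNAs was later in OS replicate 19, at 32.86 against 31.78. The SD of normalized miR-669b was 2.55 in controls and 2.40 in OS mice, where the median SD of a member was 0.81 and 0.69. The difference of 2.07 was the largest of the members but came with an SE of 1.11 and an interval of -0.27 to 4.40, and did not pass the test (limma adjusted p = 0.219, exact two-sided permutation p = 0.145, n = 6 and 8). For miR-669e the difference was 0.69 (SE 0.38, limma adjusted p = 0.220), for miR-669l 0.94 (SE 0.49, limma adjusted p = 0.214) and for miR-669a-5p 0.36 (SE 0.52, limma adjusted p = 0.675). The wells near the limit thus had differences of 1 unit or less, and the groups overlapped in each.

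Averaged per mouse over the detected members, the subfamilies had differences of unlike sign, given here as a description with no test. The members averaged differ between mice. For miR-467 it was miR-467a alone in control replicate 1 and miR-467b alone in OS replicate 11. What part the choice of detected wells has in these means and SDs was not tested. The 6 controls had a mean miR-467 level of -2.53 ± 0.88 (SD) and the 6 OS mice with a value had -4.10 ± 0.55 (SD), a difference of -1.58. The mean of miR-466 differed by 0.97, or by 0.45 without miR-466j, and that of miR-669 by 1.04, or by 0.52 without miR-669b. The mean of miR-297 differed by 0.39, which became 0.23 with missing values at Cq 38 and 0.64 with the panels centred apart. With missing values at Cq 38 the difference was -2.02 for miR-467, 0.72 for miR-466 and 0.92 for miR-669. Of the 13 members 10 had a positive difference, against 49.7% of all miRNAs, and the negative ones were miR-297c, miR-467a and miR-467b. This count was 10 with reference miRNAs as the scaling, 11 with the median or with panels I and II centred apart, and 7 with no scaling, where the median of all 388 miRNAs was itself -0.45. Under each of these scalings miR-466j stayed positive and both miR-467 wells negative. With no scaling the median difference of the members was 0.14. The level that Cq 37 takes after normalization averaged -5.32 over control mice, from -6.41 to -4.16. Over OS mice it averaged -4.88, from -5.35 to -4.14. On average, members near the limit were thus cut off at a higher normalized level in OS mice. What part this has in the count of positive differences was not tested.

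The distance between miR-467b and miR-466j within a mouse does not depend on a scaling that all wells of the mouse share. It does carry any shift between the panels, since miR-467b is a panel I well and miR-466j a panel II well. With the panels centred apart, the differences between groups were -1.40 for miR-467b and 1.49 for miR-466j, against -1.67 and 1.94 as reported. In controls with both at Cq 37 or below, Cq of miR-467b minus Cq of miR-466j was -0.24 ± 0.56 (SD, n = 5, range -1.15 to 0.34), so both were read at nearly the same cycle. In such OS mice it was 3.72 ± 0.96 (SD, n = 5, range 2.39 to 4.99). With the mice past the limit included, at their given Cq, it was -1.15 to 2.75 (0.26 ± 1.32, SD, n = 6) in controls and 1.44 to 5.46 (3.81 ± 1.39, SD, n = 8) in OS mice. The groups then overlapped, through control replicate 1 at 2.75 and OS replicates 15 and 19 at 2.39 and 1.44. The pair was chosen after its values were seen, so no test is given.

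Likeness between miRNAs was measured as the SD across mice of the difference in Cq, over at least 10 mice with both values, where a smaller SD is a closer likeness. The nearest to miR-467a were miR-15b (SD 0.44 cycles), miR-106b (0.46) and miR-19a (0.48) over 11 mice, and the nearest to miR-467b were miR-103 (0.41), miR-374 (0.43) and miR-181d (0.48) over 10 mice. With that minimum the nearest member was miR-669a-5p for both, at 1.35 and rank 136 of 321 for miR-467a and at 1.24 and rank 147 for miR-467b. The study counts miR-103 among its reference miRNAs. The scaling to reference miRNAs used here thus includes the miRNA nearest to miR-467b and is no independent check of it. The nearest to miR-466j were miR-291a-5p (0.87, 10 mice), miR-351 (0.97, 14 mice) and miR-1839-3p (0.98, 14 mice). For miR-669b the nearest was miR-10b, a rat assay, at 2.00 over 10 mice, followed by miR-7a and miR-582-3p at 2.14, so no miRNA tracked it closely.

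Some members had another member among their 3 nearest over at least 10 mice, a minimum that leaves out the pair of miR-467a and miR-467b, at 0.57 over 9 mice. Among the 3 nearest of miR-297a (miR-425*, miR-125a-3p, miR-466f) and of miR-297b-3p (miR-1306, miR-195, miR-466f) was miR-466f, at 0.67 and 0.73. Among the 3 nearest of miR-669a-5p (miR-551b, miR-200b*, miR-297c) was miR-297c, at 0.80. The other members tested had no member among their 3 nearest: miR-297c (miR-125b-2-3p, miR-181a-1*, miR-708), miR-466d-3p (miR-130b, miR-322, miR-1839-5p), miR-466f (miR-125a-3p, miR-1839-5p, miR-125b* by a rat assay) and miR-669e (let-7f-1*, miR-378, miR-125b* by a rat assay). These points share mice and each mouse's RNA input.

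**Figure D5:**
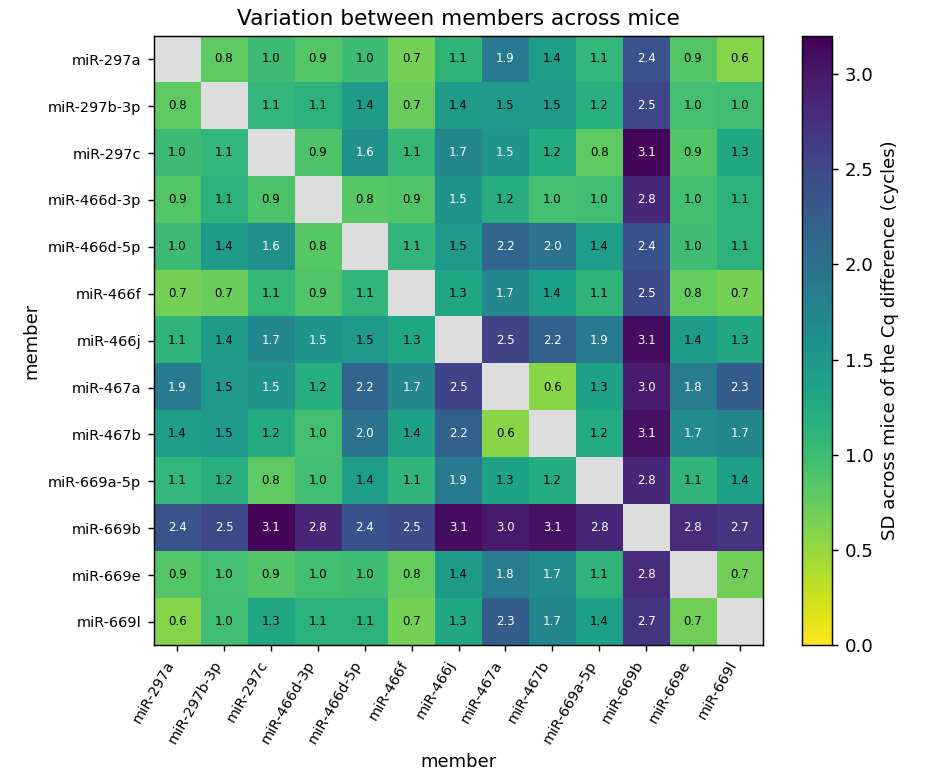
SD across mice of the difference in Cq, in cycles, for each pair of members over the mice with both values; darker cells are larger SDs, and a low value means that the pair kept its distance from mouse to mouse. The pair miR-467a and miR-467b stands at 0.57, and every pair with miR-669b is at 2.38 or more.

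Plasma carries miRNAs of blood cells and liver, and miR-451, miR-16, miR-223 and miR-122, which mark red cells, white cells and liver, were detected in all 14 mice. Of 8 red cell wells, 3 were lower in OS and 0 higher. Their mean normalized level was 4.77 to 6.49 in controls and 3.51 to 5.41 in OS mice. That list holds miR-15b, the nearest to miR-467a. The list was not made to cover miR-106b, miR-19a or the 3 nearest to miR-467b, and whether these mark red cells was not tested. Of 7 white cell and platelet wells 1 was lower and 0 higher, and of 4 liver wells 0 were lower and 0 higher. Over all 388 miRNAs 6.44% were called lower and 6.19% higher. These short lists count star (*) arms, and the mouse and rat assays of miR-223, as wells of their own. The haemolysis marker, Cq of miR-23a minus Cq of miR-451, was 4.11 to 7.21 in controls and 1.05 to 6.85 in OS mice, with means of 5.77 ± 1.43 (SD, n = 6) and 4.19 ± 1.94 (SD, n = 8), where a higher value means more red cell RNA. With this marker as a covariate neither member stayed past the threshold. The difference of miR-467b was then -1.54 (limma adjusted p = 0.0691), that of miR-467a was -0.88 (limma adjusted p = 0.334) and that of miR-466j was 1.53 (limma adjusted p = 0.240), and over all miRNAs 11 were called higher and 6 lower. What part red cell RNA has in these results was not tested further.

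Other repeat-like or stem cell miRNAs were taken as named lists. Both measured members of the miR-290 to miR-295 cluster of embryonic stem cells, miR-291a-5p and miR-291b-5p, were higher in OS (2 of 2, differences 2.19 and 2.77 by limma), and 67.9% of their values were detected. The X chromosome repeat cluster had 2 measured members and the test called 0. Of miR-574-3p, which is also a candidate of the study, and miR-709, 1 was higher. These 2 were listed by name alone, and their sequences were not looked at. Lists of 2 are too short to be set against the background.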

How the data were processed

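RNA was measured by qPCR in plasma of 6 control and 8 GEMM OS mice, 1 sample per mouse, grouped by the sample labels. The authors deposited Cq values, a log2 scale, for 768 wells of the Exiqon mouse miRNome panels, read on a Roche LightCycler and handled in GenEx Pro. The sources used here do not say whether interplate calibration and removal of outliers came before these values. A second deposited table holds the authors' comparison (signed fold changes, p-values and adjusted p-values), of which only the well positions and names were read.

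Following the methods, values past Cq 37 were treated as missing and miRNAs with 75% or more of values missing were dropped (388 of 389 stayed, with all 13 members), and each Cq was subtracted from the global mean of its mouse. For this mean alone, a missing value took the mean of its group, or Cq 38 if the group had no value. In the tests missing values stayed missing, so a member was compared in the mice with a value. For 3 miRNAs with 2 wells the wells were averaged. Groups were compared with limma 3.58.1 in R 4.3.3 (lmFit, eBayes, two-sided, no covariate), with Benjamini-Hochberg adjustment over 388 miRNAs. The unpaired t-test of the methods and the filling of missing values were each run as alternatives. Exact permutation tests and Fisher's exact test used Python 3.11.15 with scipy 1.17.1, and plots used matplotlib 3.10.9. The scripts were tested on simulated data. There are no molecule counts behind a Cq, so precision comes from the spread between mice.

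Named were every member and, for members with 10 mice or more, the 3 miRNAs of nearest likeness, with the comparison and marker lists by counts. The members, lists and tests were chosen with earlier results of these data known. Alternatives were other scalings, Cq limits, treatments of missing values, filters, the test, a haemolysis covariate and leaving out each mouse. The means of miR-669 without miR-669b and of miR-466 without miR-466j, and the distance of miR-467b to miR-466j with values past the limit, were added after seeing the data.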

Additional observations from a re-analysis of the deposited data

Results flagged for a closer look

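Among the 27 groups of values looked at, a sample stood far from the rest of its group in 2, and chance alone gives such a gap in a share of about 0.05 of groups. In OS replicate 17, miR-466d-3p was at a normalized level of -2.91, where the next highest of the 6 OS mice with a value was at -4.01, a gap of 0.747 of the range of the group. OS replicate 19 had 6 members detected, where the next lowest OS mouse had 10, a gap of 0.571 of the range. In the same mouse miR-669b was at its highest normalized level, 6.20, while 87.0% of the other miRNAs were detected.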

How the results depend on the processing

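No paired analysis was possible because the labels do not say which control was a littermate of which OS mouse. Counts of calls moved most, with higher and lower given in that order for all 388 miRNAs (24 and 25 as reported). No scaling gave 4 higher, Cq limit 35 gave 14 and 15, the haemolysis covariate 11 and 6, the methods' t-test 10 and 14, and scaling to reference miRNAs or to the median 11 and 14 lower. Leaving out a mouse gave 13 to 35 higher and 7 to 38 lower, the extremes being without control replicate 3 (13 and 7), without control replicate 14 (13 and 9) and without OS replicate 15 (38 lower), and the lower calls were 12 to 16 without OS replicate 10, 11, 12 or 19 or control replicate 13. Members called higher fell from 1 to 0 with reference miRNAs, panel means, no scaling, the covariate or the t-test, and were 0 to 1 without a mouse. Members called lower were 0 at Cq limits 35 and 36 and among miRNAs measured in every mouse, where miR-467b could not be fitted, 0 with the covariate, 2 with missing values at Cq 38, where miR-467a joined (-2.37, limma adjusted p = 0.0284), and 0 to 2 without a mouse, with miR-467a joining without control replicate 1 (-1.79, limma adjusted p = 0.0350) and miR-467b lost without control replicate 3. The mean difference of miR-466 over members measured in every mouse, miR-466j alone, was 1.94.

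Some differences near 0 changed sign, none of them called. With no scaling miR-297b-3p was at -0.00286, miR-466d-3p at -0.29 and miR-669a-5p at -0.34. At Cq limit 36 miR-466d-3p was at -0.0430, and with the covariate miR-669l was at -0.0193 and miR-297c at 0.0751. For miR-297c the median scaling gave 0.17, panel means 0.24 and missing values at Cq 38 gave 0.0203. Without a mouse, miR-297b-3p ran from -0.0270 to 0.51 and miR-297c from -0.37 to 0.36. The share of mice with a detected value, OS minus control in percentage points, turned to -20.8 for miR-297c and 20.8 for miR-669l at Cq limit 35. At Cq limit 36 it was 41.7 for miR-297a, 4.17 for miR-466f, -16.7 for miR-669a-5p and 12.5 for miR-669l. It was 4.17 for miR-466d-3p at Cq limit 38 and -12.5 for miR-297c with any Cq below 40. The cause was not tested.

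Undetected values with a Cq have only an upper bound, and the blank of miR-467a has none. Of 182 member values, 119 lay within the last 3 cycles before the limit. Fisher's exact test called 0 miRNAs after adjustment at each of the 5 limits tried, and 13 (Cq 35), 9 (Cq 36), 1 (Cq 37), 1 (Cq 38) and 0 (any Cq below 40) at an unadjusted p under 0.05.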
